A study of Mus musculus with 8 samples.

Results

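Hypertrophic cartilage genes were examined as a set of 5 genes, Col10a1, Mmp13, Pth1r, Pthlh and Mef2c, among the 32285 features counted in each library. The genes were matched by symbol, and their raw UMIs (unique molecular identifiers, 1 per captured transcript) were summed over the nuclei of each annotated cell type and expressed as CPM, counts per 1000000 UMIs of those nuclei. Single-nucleus RNA sequencing had been performed on the petrous temporal bone (PTB), the part of the skull around the subarcuate fossa, and on the paraflocculus/flocculus (PF/F) of the cerebellum from P5.5 mice. The comparison was between 2 WT and 2 Tbx1+/- PTB libraries. The Tbx1+/- mice were heterozygous for Tbx1, a T-box transcription factor gene, with 5 mice pooled in each library. The study describes 2 batches of animals per genotype, and the replicate number in the labels is taken here as the batch. Neither source links the batches to replicate numbers. The labels give no other allele and no treatment for either group. Because mice were pooled, the spread between libraries is not the spread between animals.

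In the growth plate, proliferating chondrocytes stop dividing, enlarge and become hypertrophic before the cartilage is replaced by bone. Pthlh, the parathyroid hormone-like ligand, acts on its receptor Pth1r to hold chondrocytes back from this step, in a loop with Indian hedgehog (Ihh) from prehypertrophic cells. Mef2c is a transcription factor that promotes hypertrophy, Col10a1 encodes the type X collagen that hypertrophic chondrocytes lay down, and Mmp13 encodes a collagenase made by late hypertrophic chondrocytes and by osteoblasts.

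The genes lie on 4 chromosomes of mouse GRCm38, the build also called mm10. Col10a1 (ENSMUSG00000039462) spans chr10:34389981-34397085 on the plus strand and overlaps Nt5dc1 on the opposite strand. Mmp13 (ENSMUSG00000050578) spans chr9:7272514-7283331 on the plus strand with no overlapping gene. Pth1r (ENSMUSG00000032492) spans chr9:110722085-110747145 on the minus strand and overlaps Myl3 on the opposite strand. Pthlh (ENSMUSG00000048776) spans chr6:147252101-147264183 on the minus strand, and Mef2c (ENSMUSG00000005583) spans chr13:83504034-83667080 on the plus strand, both without an overlapping gene. No member shared its strand with another counted gene.

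Col10a1 and Mmp13, the collagen and the collagenase gene, peaked in different cell types, so the 250 bases before their start sites are shown (RefSeq, GRCm38.p6, plus strand, 5′ to 3′). Capitals mark matches to the motifs searched on both strands: RUNX (ACCACA), AP-1 (TGANTCA), MEF2 (CTA, 4 bases of any kind, TAG) and a TATA box (TATAAA), none of which overlapped another.
Col10a1, chr10:34389731-34389980: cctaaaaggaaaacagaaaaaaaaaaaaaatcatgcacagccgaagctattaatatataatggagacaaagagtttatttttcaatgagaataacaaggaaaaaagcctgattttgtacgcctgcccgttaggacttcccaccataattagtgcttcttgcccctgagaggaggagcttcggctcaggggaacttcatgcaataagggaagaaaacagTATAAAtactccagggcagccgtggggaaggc
Mmp13, chr9:7272264-7272513: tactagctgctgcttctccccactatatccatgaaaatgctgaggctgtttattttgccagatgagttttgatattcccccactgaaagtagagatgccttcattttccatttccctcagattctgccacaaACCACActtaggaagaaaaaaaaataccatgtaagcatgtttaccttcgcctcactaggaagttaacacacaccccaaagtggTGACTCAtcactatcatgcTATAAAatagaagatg
The Mmp13 window held a RUNX match at bases -118 to -113 from the start, an AP-1 match at -35 to -29 and a TATA box at -16 to -11. The Col10a1 window held the TATA box alone, at -32 to -27. Of 32536 promoter windows of the same length, 4543 held the RUNX letters, 2189 (6.73%) the AP-1 letters, 1047 (3.22%) the MEF2 letters and 4006 (12.3%) the TATA letters. These matches are descriptions of the sequence and were not tested for binding.

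The files held 63177 PTB barcodes, of which 31076 carried 1 of 15 deposited cell types, and the libraries had 5981 to 9977 annotated nuclei with a median of 3853 to 4758 UMIs. The types comprised 4 connective tissue (CT) and 6 chondrocyte progenitor (CP) subtypes, matured chondrocytes, a class labelled as hypertrophic chondrocytes or osteoblasts (here the hypertrophic class), osteoblasts, matured osteoblasts or osteocytes, and osteoclasts. Between 45 and 82 barcodes were shared by each pair of PTB libraries. Tbx1 itself stood at 38.9 and 39.4 CPM in the WT libraries and at 26.3 and 35.7 CPM in the Tbx1+/- libraries, without overlap, as did 23.2% of all genes tested over all nuclei. The difference was -0.34 on the log2 scale (SE 0.17, edgeR quasi-likelihood test, adjusted p = 1.00).

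The name of the hypertrophic class was first compared with its markers. Ihh, the hedgehog ligand of prehypertrophic chondrocytes, was at 4.0, 1.7, 0.53 and 1.6 CPM in the hypertrophic class of WT 1, Tbx1+/- 1, WT 2 and Tbx1+/- 2, close to the osteoclast mean of 1.35 CPM. In matured chondrocytes the same libraries had Ihh at 62.6, 59.9, 29.1 and 51.4 CPM, and every one exceeded its hypertrophic class. Col2a1 (type II collagen of cartilage) was at 372 to 619 CPM in the hypertrophic class and at 2148 to 5217 CPM in matured chondrocytes, and Sox9, the chondrocyte transcription factor, was at 9.0 to 25.7 against 121 to 194 CPM. Runx2, the osteoblast transcription factor that also drives hypertrophy, was at 6558 to 7334 CPM in the hypertrophic class against 3600 to 4327 CPM in matured chondrocytes, and was highest in CP1 (8806 ± 448 CPM). Spp1 (osteopontin) was likewise higher there, at 3130 to 8322 against 1226 to 1556 CPM. Panx3, a channel gene of prehypertrophic and hypertrophic cells, was at 345 to 427 CPM in the hypertrophic class, 563 to 935 CPM in matured chondrocytes and 613 to 803 CPM in osteoblasts. Of the 7 hypertrophic markers, Ihh, Col10a1 and Panx3 had their highest mean in the nuclei labelled matured chondrocytes, Mmp13 and Spp1 in the hypertrophic class, and Alpl and Ibsp, genes of mineralising cells, in osteoblasts. Summed, the 7 markers stood at 7136 to 13787 CPM in the hypertrophic class, 7245 to 14657 CPM in osteoblasts, 5967 to 16053 CPM in matured osteoblasts and 4566 to 5440 CPM in matured chondrocytes. This sum cannot decide whether the hypertrophic class differs from osteoblasts. It holds Alpl and Ibsp, which were highest in osteoblasts, and Spp1 made up 3130 to 8322 CPM of it in the hypertrophic class. The 9 osteoblast markers summed to 13469 to 15527 CPM in the hypertrophic class and 20901 to 33692 CPM in osteoblasts, without overlap. The 8 chondrocyte markers, summed, were likewise below osteoblasts in each library. Mmp13 was higher, at 1564 to 2230 against 188 to 291 CPM. The class is named here by its label only. All types were clustered on these same nuclei, so their levels are described without a test.

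**Figure D1:**
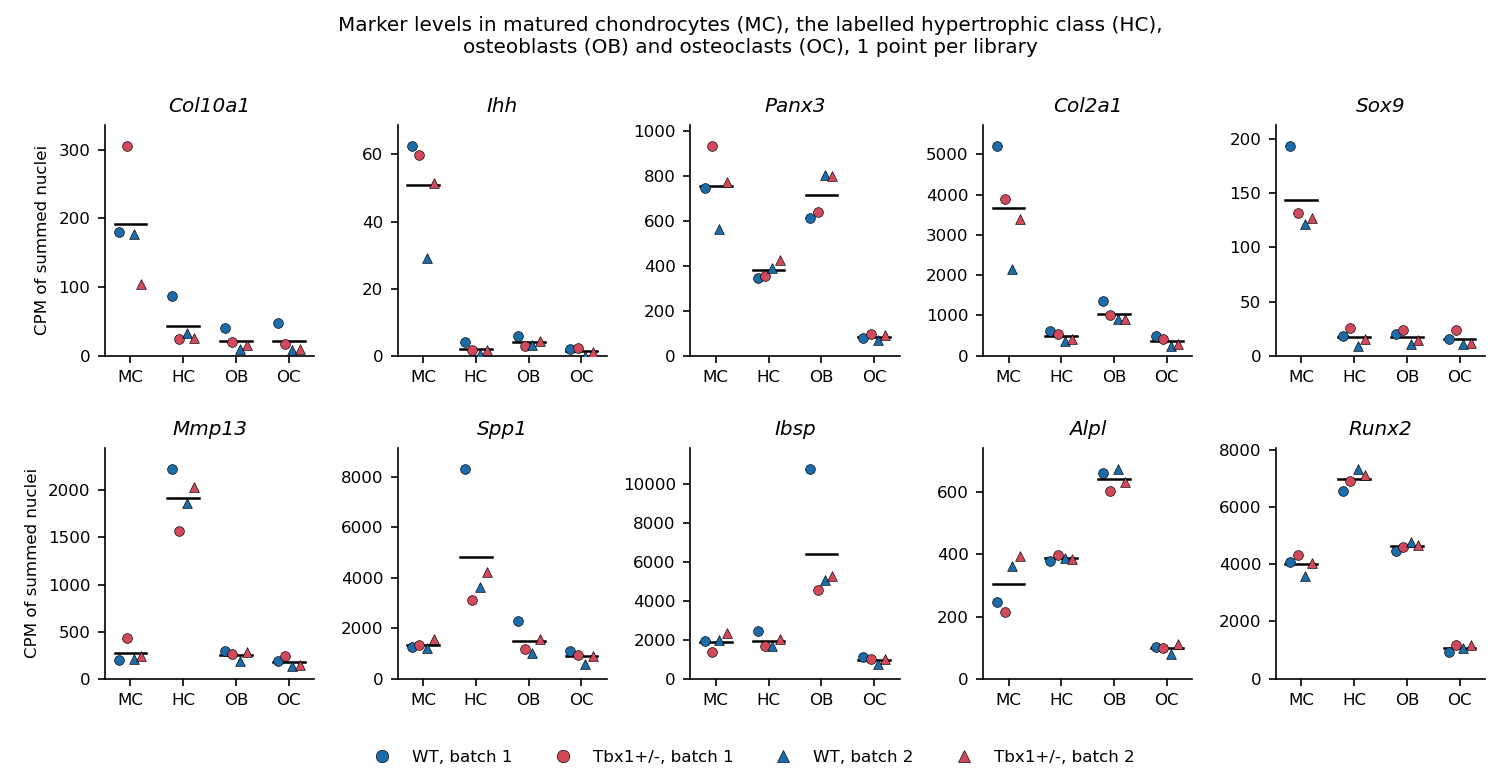
Level (CPM of summed nuclei, each vertical axis from 0) of 10 marker genes in 4 classes, 1 point per library, with bars at the mean of 4 libraries. Ihh sits at 29.1 to 62.6 CPM in matured chondrocytes and at or below 4.0 CPM in the hypertrophic class, whereas Mmp13 is at 1564 to 2230 CPM in the hypertrophic class.

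Pthlh, the ligand, was sparse and lay mainly outside the mature classes. CT1 had 37, 34, 15 and 6 UMIs in WT 1, Tbx1+/- 1, WT 2 and Tbx1+/- 2, or 7.3, 10.1, 9.5 and 12.7 CPM, the highest mean of any type (9.9 ± 2.3, SD, n = 4 libraries). CT2 (8.3 ± 2.8 CPM), CP2 (8.2 ± 1.3 CPM) and CP4 (6.7 ± 2.3 CPM) followed, and none of these 4 neighbours differed from the next beyond the spread between libraries. The hypertrophic class had 3 to 9 UMIs per library (1.1 ± 0.39 CPM), and matured chondrocytes had 0 to 3. In osteoclasts, which should lack the gene, 5, 0, 0 and 1 UMIs were found, where 0 UMIs allows up to 1.103 CPM in Tbx1+/- 1 and 1.16 CPM in WT 2. A Pthlh UMI was present in 2.36 to 4.24% of CT1 nuclei (median 3328 to 4006 UMIs) and in 0 to 0.937% of osteoclasts (median 4963 to 7105 UMIs). The CP and CT classes together held most Pthlh UMIs, with 45.3 to 63.5% in CP and 24.0 to 36.2% in CT, where CP had 36.1 to 42.8% and CT 11.4 to 19.2% of all UMIs.

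Pth1r, the receptor, was highest in matured chondrocytes, at 1319 CPM in WT 1, 1241 in Tbx1+/- 1, 1269 in WT 2 and 1718 in Tbx1+/- 2. Each of these was 8.95 to 11.02 times the osteoclast level of its own library, and the lowest was above the highest library of every other type. Osteoblasts (618 ± 29.6 CPM), matured osteoblasts (537 ± 59.2), CP1 (416 ± 47.5) and the hypertrophic class (324 ± 9.6) came next, each below the one before it in 4 of 4 libraries. The hypertrophic class and CT4 (297 ± 52.3 CPM) did not differ beyond their spread. Receptor and ligand thus had their highest means in different types, with Pthlh in matured chondrocytes resting on 7 UMIs in all libraries together. Its upper 95% limits there were 15.1, 22.1, 21.3 and 8.4 CPM in WT 1, Tbx1+/- 1, WT 2 and Tbx1+/- 2. All but the last exceeded CT1, so a Pthlh peak outside matured chondrocytes is not settled. Pth1r UMIs were found in 79.0 to 83.0% of matured chondrocytes (median 2339 to 2963 UMIs) against 40.6 to 49.0% of the deeper osteoclasts, and thinning to 2000 UMIs gave 69.7 to 75.7% against 14.5 to 23.8%, with 144 of 587 and 37 of 1559 nuclei left out as too shallow.

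**Figure D2:**
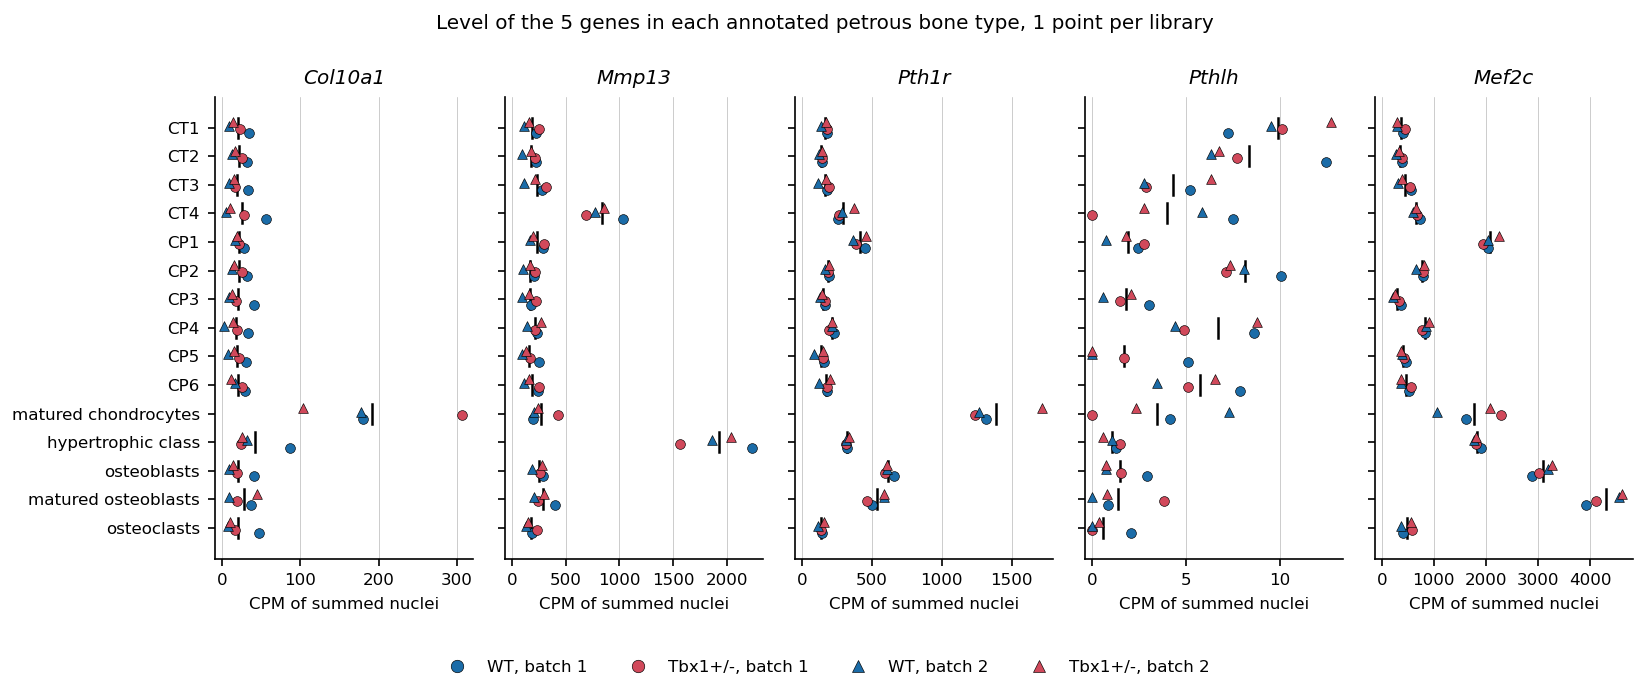
Level (CPM of summed nuclei, 1 scale per gene from 0) of the 5 genes in the 15 annotated PTB types, 1 point per library, with bars at the mean of 4 libraries. Col10a1 and Pth1r peak in matured chondrocytes, Mmp13 in the hypertrophic class with CT4 next and Mef2c in matured osteoblasts. The sparse Pthlh has its highest mean in CT1 at 9.9 CPM.

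Mef2c, the transcription factor, was highest not in cartilage but in matured osteoblasts or osteocytes, at 3923, 4123, 4561 and 4617 CPM in WT 1, Tbx1+/- 1, WT 2 and Tbx1+/- 2. Osteoblasts were at 3091 ± 171 CPM and CP1 at 2074 ± 131 CPM, and these 3 types were in the same order in all 4 libraries. The hypertrophic class had 1906, 1804, 1767 and 1818 CPM, a narrow range. Matured chondrocytes had 1623, 2296, 1056 and 2078 CPM, a wide range on both sides of the hypertrophic class, so the 2 did not differ beyond the spread. Both were above CP4 (840 ± 52.7 CPM), and CP3 was lowest (293 ± 69.4 CPM). Mef2c is also used in blood-derived cells, so osteoclasts (478 ± 108 CPM) are no empty reference for it. A Mef2c UMI was found in 98.6 to 100% of matured osteoblasts, in 94.0 to 95.5% of the hypertrophic class and in 47.5 to 66.8% of CP3 (median 3547 to 4326 UMIs).

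Col10a1, the type X collagen gene, was highest in matured chondrocytes, at 179 CPM in WT 1, 306 in Tbx1+/- 1, 177 in WT 2 and 104 in Tbx1+/- 2. These values rested on 86, 51, 73 and 89 UMIs, and were 3.77 to 22.9 times the osteoclast level of the same library. The hypertrophic class came second, at 86.8, 24.7, 32.1 and 25.9 CPM. It was above its own osteoclasts in all 4 libraries, but did not differ from matured osteoblasts (27.9 ± 16.4 CPM) beyond the spread. Osteoclasts, which do not make type X collagen, had 47.6, 16.9, 7.7 and 9.9 CPM. The other 12 types had means of 17.6 to 27.9 CPM and none of them differed from its neighbour in the order beyond the spread. In WT 1 no type was below 28.5 CPM. The value of 306 CPM in Tbx1+/- 1 came from 48 nuclei, and 1 nucleus held 38 of the 51 UMIs. Its exact 95% Poisson interval of 228 to 402 CPM covers counting error only and not this concentration. In WT 2, 1 nucleus held 56 of the 73 UMIs. Both of these nuclei also had at least 5 Mmp13 UMIs. The share of nuclei with a Col10a1 UMI, after thinning to 2000 UMIs, was 9.09 to 20.2% in matured chondrocytes, 2.60 to 8.51% in the hypertrophic class and 1.29 to 4.12% in osteoclasts, and without thinning 8.70 to 27.9%, 5.98 to 15.8% and 5.94 to 11.7%.

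Part of the Col10a1 signal sat in few nuclei. Nuclei with at least 5 Col10a1 UMIs numbered 6, 2, 2 and 7 among matured chondrocytes and 17, 0, 2 and 4 in the hypertrophic class of WT 1, Tbx1+/- 1, WT 2 and Tbx1+/- 2. In matured chondrocytes they held 37.2, 86.3, 83.6 and 49.4% of the gene's UMIs, and without them the class stood at 118, 44.9, 29.6 and 55.7 CPM. Without its rich nuclei the hypertrophic class stood at 44.1, 24.7, 11.4 and 16.9 CPM. In osteoclasts 1 nucleus of WT 1 held 53 of that library's 114 Col10a1 UMIs, and without it osteoclasts stood at 25.6, 16.9, 7.7 and 9.9 CPM, below the hypertrophic class in each library. The remaining nuclei of matured chondrocytes and the hypertrophic class differed, with Mmp13 at 236 and 1904 CPM and Pth1r at 1430 and 323 CPM. Their Col2a1 was at 3423 and 491 CPM. The rich nuclei of the classes differed in the same direction. Among the 17 in matured chondrocytes, 10 had an Ihh UMI and the summed nuclei had Mmp13 at 340 CPM, Pth1r at 2506 CPM and Col2a1 at 7802 CPM. Of the 23 in the hypertrophic class, 1 had an Ihh UMI, and Mmp13 was at 3630 CPM, Pth1r at 460 CPM and Col2a1 at 1256 CPM. These nuclei were selected on Col10a1 alone and pooled over libraries, 17 of the 23 coming from WT 1, so the values are a description. A further 54 rich barcodes carried no annotation, 47 of them with at least 1000 genes. Doublets were not removed.

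**Figure D3:**
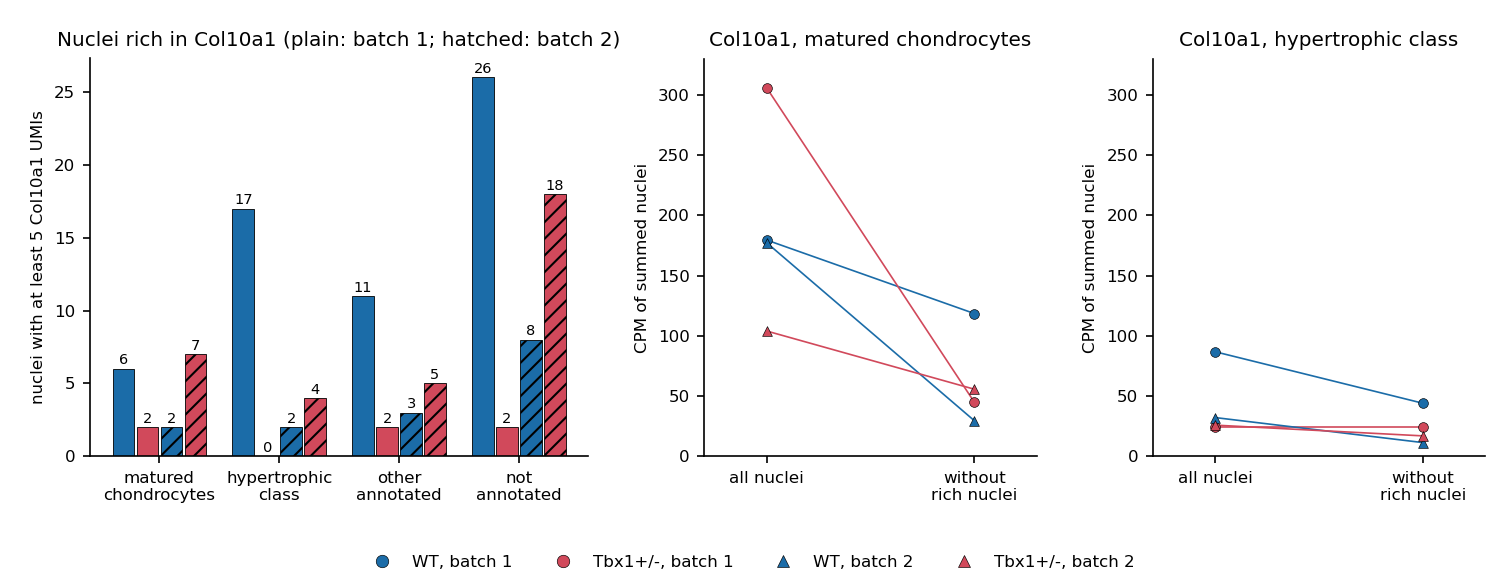
Left, number of nuclei with at least 5 Col10a1 UMIs per library in 4 groups of barcodes; centre and right, Col10a1 level (CPM of summed nuclei) in 2 classes with and without those nuclei, 1 line per library. Without their 2 to 7 rich nuclei, matured chondrocytes go from 104 to 306 CPM down to 29.6 to 118 CPM, and in the hypertrophic class WT 1 stands apart with 17 such nuclei.

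Mmp13, the collagenase gene, was highest in the hypertrophic class, at 2230, 1564, 1863 and 2037 CPM in WT 1, Tbx1+/- 1, WT 2 and Tbx1+/- 2. CT4 was the only other type well above the rest, at 1029, 690, 770 and 859 CPM. Both steps, from the hypertrophic class to CT4 and from CT4 to the next type, had 1 sign in 4 of 4 libraries and were larger than their spread (1086 ± 149 and 549 ± 73.4 CPM). Matured chondrocytes, the type with most Col10a1, had Mmp13 at 194, 432, 211 and 244 CPM. That was within the range of osteoblasts, 188 to 291 CPM, in 3 of the 4 libraries. In Tbx1+/- 1, the exception, 2 nuclei held 36 of the 72 UMIs, and the other nuclei stood at 240 CPM. Osteoclasts had 186, 236, 134 and 150 CPM. Nuclei of the hypertrophic class with a Mmp13 UMI made up 83.6 to 88.9% (median 3975 to 4689 UMIs) against 37.5 to 58.5% of osteoclasts, and 71.8 to 79.8% against 17.04 to 30.04% after thinning to 2000 UMIs. Mmp13 was spread over many more nuclei than Col10a1, with at least 5 UMIs in 665 of 1257, 580 of 1342, 336 of 702 and 533 of 1010 nuclei of the class. These held 86.2 to 92.9% of its Mmp13 UMIs, and the remaining nuclei stood at 296 to 424 CPM. The class held 51.6 to 59.5% of all annotated Mmp13 UMIs and 11.3 to 14.9% of all UMIs.

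The genes with the most similar profile over the 15 types, by Pearson's r of log2(CPM + 1) among 13125 genes, differed between members. For Col10a1 these were the cartilage genes Snorc (r = 0.95), Foxa2 (0.95) and Comp (0.94). Their highest mean in matured chondrocytes follows from the choice, as Col10a1 stood out in that type alone. Foxa2 reached the limit of 10 CPM only in that type. For Mmp13 they were Gm49249 (0.94), Ccn5 (0.93) and Qsox1 (0.92), for Pth1r Cd9 (0.96), Gramd2 (0.96) and Lbh (0.94), and for Mef2c Sp7 (0.97), A430106G13Rik (0.96) and Gm26930 (0.95). Pthlh resembled Gap43 (0.89), Wnt9a (0.87) and Sntg2 (0.85), at 13126 genes compared. Between members, Mef2c and Pth1r were most alike (0.84), followed by Col10a1 and Pth1r (0.75), while Col10a1 and Mmp13 had r = 0.31 and Pthlh was negative with each of the others, from -0.43 to -0.10. The 15 points share libraries and depth, and the genes are not independent.

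The question of genotype was whether the members differed between WT and Tbx1+/- nuclei within each class. Of the members tested, 5 in CT, CP, osteoblasts and all nuclei and 4 in matured chondrocytes, the hypertrophic class, matured osteoblasts and osteoclasts (where Pthlh was too low), 0 were called in any of them. The call required an adjusted p below 0.05 and more than 1.5-fold (edgeR quasi-likelihood test), and 0% of all genes were called in each class. At an unadjusted p under 0.05 there were 142 of 15889 genes in CT (0.894%), 150 of 17894 in CP (0.838%), 196 of 7719 in matured chondrocytes (2.54%), 273 of 15120 in the hypertrophic class (1.81%), 192 of 15573 in osteoblasts (1.23%), 239 of 10508 in matured osteoblasts (2.27%), 288 of 13191 in osteoclasts (2.18%) and 217 of 20250 in all nuclei (1.07%). The members among them were Col10a1 in the hypertrophic class and Mef2c in osteoclasts. DESeq2 also called 0 genes in each. With a term for the replicate number, taken here as the batch, 24 genes were called in CT, 18 in matured chondrocytes, 4 in matured osteoblasts and 3 in osteoclasts. No member was among them. Genes at an unadjusted p under 0.05 then made up from 2.88% in osteoblasts to 6.00% in CT, and 5.15% in all nuclei. Without this term they made up 0.838 to 2.54%. The main test thus gave fewer low p-values, but it leaves out the pairing by replicate number. With 2 libraries per genotype, simulated 2-fold changes were recovered for 55% of genes in CP, 49% in the hypertrophic class and 0% in matured chondrocytes. Beside the 200 changed genes, 28, 12 and 0 unchanged ones were called, above the nominal rate in CP and the hypertrophic class. The changed genes were drawn from those with higher mean counts, so these shares do not extend to sparse members such as Pthlh. Simulated libraries varied independently, whereas same-numbered libraries in the data deviated together. The recovered shares and false calls therefore need not hold for the real fits. In matured chondrocytes, none of the simulated 2-fold changes was detected by this test.

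Col10a1 in the hypertrophic class had a lower level in Tbx1+/- that did not pass the test. Its libraries stood at 86.8 and 32.1 CPM in WT and at 24.7 and 25.9 CPM in Tbx1+/-, without overlap, as did 26.2% of all genes tested in the class. Without the 23 nuclei with at least 5 Col10a1 UMIs, the genotypes overlapped, at 44.1 and 11.4 CPM in WT and 24.7 and 16.9 CPM in Tbx1+/-, and the Tbx1+/- library was the higher one in batch 2. Those nuclei were chosen on Col10a1 itself, with 17 and 2 in the WT libraries against 0 and 4 in the Tbx1+/- libraries. Taking them out lowers WT more by construction, so it is no test of the genotype difference. The log2 difference was -1.27 (SE 0.41, edgeR, adjusted p = 1.00). Within batch 1 it was -1.81 and within batch 2 -0.31, and leaving out WT replicate 1 gave -0.35. Leaving out WT replicate 2 gave -1.80 and passed (edgeR, adjusted p = 0.0366), as 1 of 2 genes then called, and with no filter on low counts the fit with all libraries passed as well (edgeR, log2 -1.26, adjusted p = 1.5e-07), as 1 of 17 called among 24127 genes, 14 of them lower. Without WT replicate 2, Col10a1 also passed in osteoclasts (edgeR, log2 -1.84, adjusted p = 0.0044), as 1 of 43 genes and with 53 of the 114 UMIs of WT 1 in 1 nucleus, and in osteoblasts (edgeR, log2 -1.28, adjusted p = 0.0358), as 1 of 33. In the hypertrophic class, the fit with no filter moved the log2 difference only from -1.27 to -1.26, so its pass went with a smaller estimated spread. Fits that leave out 1 WT library hold the other as the only WT library, so their spread comes from the Tbx1+/- pair and the lone library is assumed to vary like it. Without WT replicate 1 the log2 difference turned to 0.78 in osteoclasts and 0.88 in osteoblasts. That library also held 17 of the 23 Col10a1-rich nuclei, had the highest Spp1 of the class (8322 against 3130 to 4230 CPM in the others) and the highest Col10a1 in osteoclasts. In matured chondrocytes Col10a1 moved by 0.77 in batch 1 and by -0.77 in batch 2, so no direction held, and the fitted difference was 0.03 (SE 0.41).

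**Figure D4:**
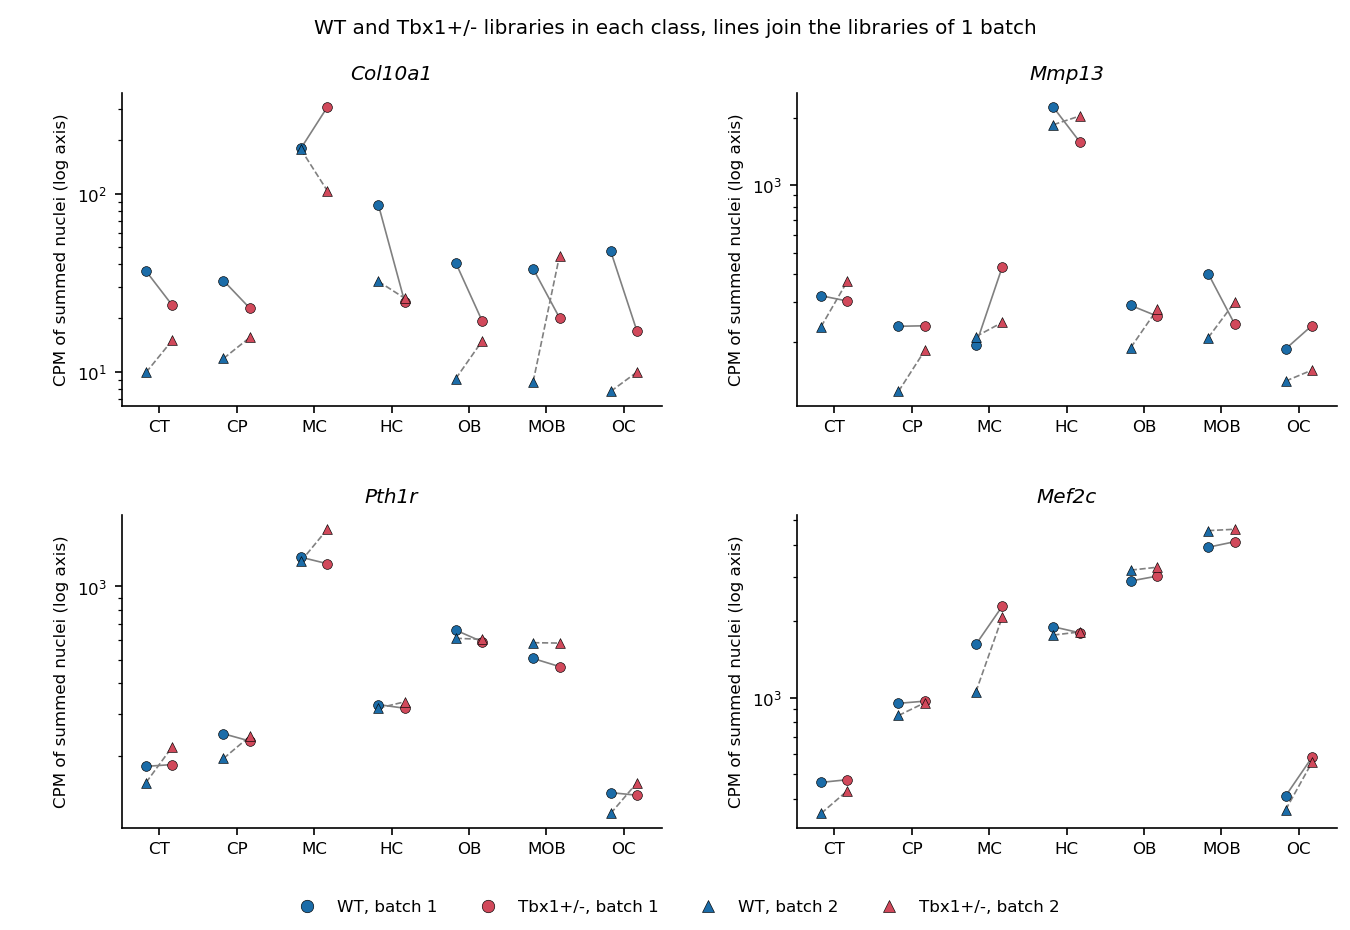
Level (CPM of summed nuclei, log axis) of 4 members in WT and Tbx1+/- libraries by class: CT, CP, matured chondrocytes (MC), hypertrophic class (HC), osteoblasts (OB), matured osteoblasts (MOB) and osteoclasts (OC). Lines join the 2 libraries of 1 batch (solid, batch 1; dashed, batch 2), and Mef2c is higher in both Tbx1+/- libraries in osteoclasts and in matured chondrocytes, where 0 genes pass the test.

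Mef2c was higher in both Tbx1+/- libraries in osteoclasts, at 582 and 556 CPM against 410 and 362 CPM in WT. Groups without overlap occurred for 27.1% of all genes tested in that class. The log2 difference was 0.56 (SE 0.12, edgeR, adjusted p = 1.00), with 0.50 within batch 1 and 0.62 within batch 2. Without WT replicate 1 it was 0.65 and passed (edgeR, adjusted p = 0.00315), as 1 of 206 genes then called in the class, again with a single WT library and the spread of the Tbx1+/- pair. Of the 6 skeletal muscle markers, summed over the list, osteoclasts had 922 and 860 CPM in WT and 797 and 665 CPM in Tbx1+/-. The 4 immune markers summed to 818 and 766 against 823 and 811 CPM, and the 9 osteoblast markers to 5443 and 3650 against 5685 and 4856 CPM. Their part in the Mef2c difference was not tested.

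In matured chondrocytes both Mef2c and Mmp13 were higher in the Tbx1+/- libraries without overlap, among 29.0% of all genes tested. Mef2c was at 2296 and 2078 CPM against 1623 and 1056 CPM (log2 0.72, SE 0.38, edgeR, adjusted p = 1.00). Mmp13 was at 432 and 244 CPM against 194 and 211 CPM (log2 0.69, SE 0.32, edgeR, adjusted p = 1.00). For Mmp13 the difference was 1.15 within batch 1 and 0.21 within batch 2, and it was 0.30 without Tbx1+/- replicate 1, where 2 nuclei held 36 of the 72 UMIs, and 1.105 without Tbx1+/- replicate 2. For Mef2c it was 0.50 and 0.98 within the batches, and 1.077 without WT replicate 1 and 0.43 without WT replicate 2. The class had 147, 48, 138 and 254 nuclei in WT 1, Tbx1+/- 1, WT 2 and Tbx1+/- 2. Its WT 2 library, with the lowest Mef2c, had 13258 CPM of the 4 erythroid markers against 905 to 1180 CPM in the other 3. Its Tbx1+/- 1 library, with the highest Mmp13, had 599 CPM of the 6 muscle markers against 38.5 to 194 CPM. Their part in these values was not tested.

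In matured osteoblasts 0 members had groups without overlap, where 28.9% of all genes had. Pth1r was at 185 and 220 CPM in Tbx1+/- and 182 and 156 CPM in WT in CT (log2 0.26, SE 0.17), where 22.9% of genes did not overlap. It was at 593 and 606 against 661 and 612 CPM in osteoblasts (log2 -0.10, SE 0.11), where 24.2% did not. Mef2c was at 970 and 956 against 951 and 852 CPM in CP (log2 0.10, SE 0.11), where 21.0% did not, and over all nuclei it also did not overlap (log2 0.19, SE 0.10), as for 23.2% of genes. In the hypertrophic class, Mmp13 (log2 -0.20, SE 0.17), Mef2c (-0.03, SE 0.11) and Pth1r (0.00, SE 0.11) overlapped between genotypes. Pthlh in CT was at 7.75 and 6.23 CPM in WT and 7.30 and 6.26 CPM in Tbx1+/- (log2 -0.04, SE 0.29).

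Whether the genotype effect differed between the 7 classes was tested for each gene in 1 model, and 0% of 16554 genes passed (513 at an unadjusted p under 0.05). None of the 5 members passed (edgeR, adjusted p = 1.00 for each), and Mef2c alone was among the 513. With no filter on low counts, 192 of 27554 genes passed, or 0.697%, among them Mef2c (adjusted p = 6.04e-04), Col10a1 (adjusted p = 2.86e-06) and Mmp13 (adjusted p = 0.0211) by the same edgeR test. The fitted differences hardly moved. For Col10a1 in the hypertrophic class relative to CP, log2 was -1.030 with the filter and -1.028 without it, while F rose from 2.09 to 8.51. The lower p-values thus went with a smaller variance estimate and are not read as differences between classes.

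The 30 other genes of the hypertrophy pathway, from the hedgehog ligand and its mediators to the transcription factors, kinases and matrix genes, were examined in the same fits. Of 25 to 30 tested per class, 0 rose and 0 fell with all libraries, the low-count filter and no block. Their median log2 difference was 0.12 in CT (22 of 27 above 0), 0.05 in CP (22 of 28), 0.11 in matured chondrocytes (17 of 26), 0.03 in the hypertrophic class (14 of 26), -0.02 in osteoblasts (12 of 28), 0.03 in matured osteoblasts (14 of 25) and 0.12 in osteoclasts (17 of 25), beside medians of -0.01 to 0.01 over all genes tested. Leaving out 1 library moved these medians, from 0.03 to 0.20 in CT, 0.02 to 0.16 in CP, -0.03 to 0.21 in matured chondrocytes (12 of 27 above 0 without WT replicate 2), -0.02 to 0.02 in the hypertrophic class, -0.07 to -0.01 in osteoblasts, 0.02 to 0.11 in matured osteoblasts and 0.04 to 0.15 in osteoclasts. The highest came without Tbx1+/- replicate 1 in CT and without WT replicate 1 in CP and matured chondrocytes. Bmp6, which encodes a bone morphogenetic protein, was highest in CT2 (529 ± 49.6 CPM). In matured chondrocytes it was at 177 and 77.7 CPM in WT and at 270 and 235 CPM in Tbx1+/-, a log2 difference of 0.96 (SE 0.35, edgeR, adjusted p = 1.00). With the replicate block it was 1.11 and passed (edgeR, adjusted p = 0.0358), as 1 of 18 genes of the class, and it also passed without WT replicate 1 (edgeR, log2 1.71, adjusted p = 0.0395), as 1 of 27 genes, and was 0.49 without WT replicate 2. Spp1 and Ibsp, matrix genes of bone, passed under alternatives only (edgeR). With no low-count filter, Spp1 was called in the hypertrophic class (log2 -0.70, 1 of 17 genes), but its libraries overlapped, at 8322 and 3625 CPM in WT and 3130 and 4230 CPM in Tbx1+/-, and without WT replicate 1 the difference was 0.0169. Ibsp was at 10976 and 4010 CPM in WT and 4452 and 4470 CPM in Tbx1+/- in matured osteoblasts, and was called there with no low-count filter (log2 -0.78, 1 of 9 genes). Without WT replicate 2, which leaves WT 1 alone, Ibsp (log2 -1.33) and Spp1 (log2 -1.36) were 2 of 24 genes called in matured osteoblasts and Ibsp (log2 -1.16) 1 of 33 in osteoblasts. Without WT replicate 1 the same differences were 0.11, 0.50 and -0.07, none called. In osteoclasts Spp1 was 0.66 without WT replicate 1, 1 of 206 genes called, and -0.29 without WT replicate 2. In osteoblasts the log2 difference of Bmp6 was -0.78 (SE 0.22, edgeR, adjusted p = 1.00). Foxa2 and Foxa3, forkhead factors of hypertrophic cartilage, were both highest in matured chondrocytes, at 12.6 ± 9.9 and 10.1 ± 5.3 CPM, with the next type of each below 1 CPM. Ptch1, the hedgehog receptor and target, was highest in CT4 at 957 ± 179 CPM, the type with the second highest Mmp13, and CT4 also had the most Mmp9 (1411 ± 481 CPM) and Mmp14 (871 ± 154 CPM).

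Outside these types, 32101 PTB barcodes carried no annotation, of which 16202 could not be assigned by the markers of 6 other cell types and the rest were grouped by them. Mef2c there was at 1160 ± 48.7 CPM in barcodes with most immune markers, 1152 ± 276 in muscle, 1126 ± 67.4 in endothelial, 540 ± 37.0 in glia, 382 ± 31.5 in neuron and 355 ± 53.8 in epithelial barcodes. Among these 6 groups, the order places the immune, muscle and endothelial groups above the others in all 4 libraries. Mmp13 was at 116 to 322 CPM and Col10a1 at 13.1 to 34.5 CPM on average over the 6 groups. The 16202 unassigned barcodes had higher means than each of the 6 groups for Mmp13 (391 ± 103 CPM), Col10a1 (46.0 ± 19.9 CPM) and Pth1r (409 ± 63.5 CPM), and 852 ± 103 CPM of Mef2c.

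In the 48237 annotated PF/F nuclei, where no cartilage is present, Mmp13 had 11 UMIs (0.0619 ± 0.0305 CPM) and Col10a1 261 UMIs (1.502 ± 0.116 CPM). Summed over all PF/F nuclei, both were below every PTB type in every library. By PF/F type, Col10a1 was at 3.60 to 8.68 CPM in meningeal nuclei (17 UMIs) and 0 to 28.7 CPM in pericytes (2 UMIs). These ranges overlap the lowest PTB values, such as 2.97 CPM in CP4. Pth1r was at 9.78 ± 0.98 CPM, highest in GABA interneuron progenitors (29.0 ± 5.4 CPM). Pthlh was highest in differentiated GABA interneurons, which held 139 of its 263 UMIs at 9.12 ± 2.16 CPM. Mef2c was at 1479 ± 115 CPM in immune nuclei, 576 ± 60.6 in Purkinje cells, 568 ± 183 in pericytes and 568 ± 136 in GABA interneurons, against 163 ± 7.7 over all nuclei. Levels in the PF/F and PTB are given side by side and were not compared by a test.

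**Figure D5:**
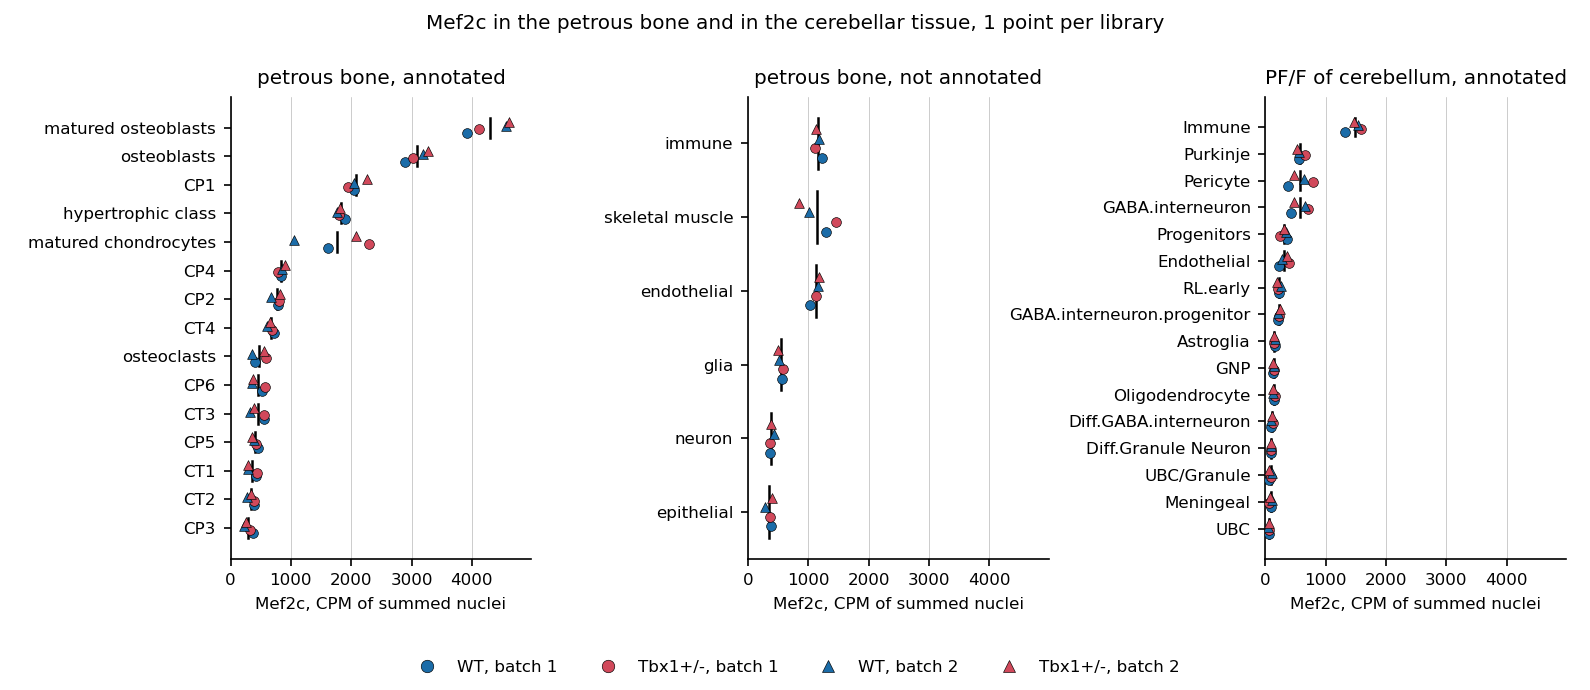
Mef2c level (CPM of summed nuclei, 1 scale) in annotated PTB types, in PTB barcodes without annotation grouped by marker genes, and in PF/F types, 1 point per library with bars at the mean. Matured osteoblasts are highest at 3923 to 4617 CPM, and immune groups of both tissues sit above 1100 CPM.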

How the data were processed

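Nuclei had been isolated from flash-frozen, pulverised PTB and sequenced with the 10x 3′ kit. The deposited UMI counts per gene and barcode were made by the authors with Cell Ranger 7.0.0 (mm10, introns included) and were the matrices before ambient RNA correction. Cell types came from the deposited annotation, and 0 columns of per-sample values were left unused. Here counts were summed per library and type and given as CPM. Neighbouring types were called apart where the within-library difference had 1 sign in 4 of 4 libraries and its mean exceeded its SD. Genotypes were compared with the edgeR 4.0.16 quasi-likelihood test (R 4.3.3, TMM, filterByExpr, no batch term) on the sums, with Benjamini-Hochberg adjustment over all genes tested, and calls at an adjusted p under 0.05 and over 1.5-fold. P-values of the main fits measure the spread between pools of 5 mice, including any difference between the replicate numbers. With no low-count filter that spread was estimated as smaller. Spp1 in the hypertrophic class then had an SE of 0.0719 although its WT libraries lay far apart. P-values of the fits with no filter therefore understate the spread between pools. The genotype test was tried on simulated data with 200 changed genes for CP, the hypertrophic class and matured chondrocytes. The other classes and the test between classes were not simulated.

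Alternatives were RLE factors, no low-count filter, DESeq2 1.42.0, the replicate block, nuclei with at least 2000 genes, removal of the 8% of nuclei with most UMIs, and leaving out each library. The replicate number was taken as the batch of animals, a link that the study does not state. Same-numbered libraries deviated together (correlation 0.478 over 20250 genes). The main test leaves this pairing out, and gave fewer genes at a low unadjusted p in each class than the replicate block did. Intervals are exact at 95%, a count of 0 allows up to 3 counts, and both cover counting error only. The genes named are the 5 members, the 30 pathway genes, Tbx1 and the 3 most similar genes of each member with at least 10 CPM in a type, and the marker genes used to check labels. Members and lists were chosen with earlier results of these data known. Unannotated barcodes were grouped by the marker list with most UMIs, at least 3. Nuclei rich in a gene had at least 5 of its UMIs, a limit set for description. Promoter sequences came from RefSeq. Python 3.11.15 with scipy 1.17.1 was used for sums and intervals.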

Additional observations from a re-analysis of the deposited data

Results flagged for a closer look

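Pthlh was detected in PTB barcodes that carried no cell type and had most UMIs from the immune markers, data that the comparisons above did not use. The libraries had 1.37 CPM in WT 1, 2.78 in Tbx1+/- 1, 1.21 in WT 2 and 2.73 in Tbx1+/- 2, from 6, 9, 4 and 11 UMIs. The mean of the Tbx1+/- libraries was 2.75 CPM, on 30 UMIs in all, and the difference was not tested. Both Tbx1+/- libraries above both WT libraries, a mean over 1.5-fold higher and at least 30 UMIs were the rule that picked it. Only rises were searched, over each member in each marker group and PF/F type. In the tested classes, 21.0 to 29.0% of all genes had groups without overlap. The level was like that of the other marker groups, and in the epithelial group the WT libraries were higher (3.55 and 2.54 against 1.92 and 2.28 CPM). Over all unannotated barcodes the genotypes overlapped, at 3.54 and 1.92 CPM in WT and 2.97 and 2.51 CPM in Tbx1+/-.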

How the results depend on the processing

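For 21 pairs of a member and a class, those given in the text or in the cartilage classes and all nuclei, 210 alternative fits were run. Of these, 187 kept direction and call, 18 reversed and 5 newly passed. Some pairs were given because their groups did not overlap, and leaving out 1 library cannot reverse the order of such levels. Others were given because an alternative called them. The counts therefore describe the chosen pairs and do not measure robustness. With no filter on low counts, 1 gene was called in CT, 10 in matured chondrocytes, 17 in the hypertrophic class (1 of them a member, Col10a1) and 9 in matured osteoblasts. In the test between classes 192 genes then passed, with adjusted p of 0.0211 for Mmp13, 2.86e-06 for Col10a1 and 6.04e-04 for Mef2c (edgeR). The fitted differences of these members hardly moved, and the variance estimate was smaller. With the replicate block, 24 genes were called in CT, 18 in matured chondrocytes, 4 in matured osteoblasts and 3 in osteoclasts, and 0 members. Leaving out 1 library gave 6 to 27 genes in matured chondrocytes, 0 to 2 in the hypertrophic class, 0 to 33 in osteoblasts (33 without WT replicate 2), 1 to 24 in matured osteoblasts (24 without WT replicate 2) and 0 to 206 in osteoclasts (206 without WT replicate 1, 43 without WT replicate 2). Members called then ranged from 0 to 1 in the hypertrophic class, osteoblasts and osteoclasts. A genotype left with 1 library is assumed to vary like the other. The cause was not tested.

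Directions that reversed were near 0 or set by 1 library. Col10a1 in matured chondrocytes was -0.0038 with no filter, -0.0271 with the block and -0.75 to 0.79 leaving out 1 library. Without the 8% of nuclei with most UMIs, Pth1r in the hypertrophic class was -0.0361 and Mef2c in matured osteoblasts -0.0137. Leaving out 1 library, Pthlh in CT ranged from -0.19 to 0.11, Pth1r from -0.047 to 0.44 in matured chondrocytes and -0.0288 to 0.0648 in the hypertrophic class, and Mef2c from -0.0894 to 0.0302 in the hypertrophic class and -0.10 to 0.13 in matured osteoblasts. Col10a1 ranged from -1.28 to 0.88 in osteoblasts and -1.84 to 0.78 in osteoclasts. Over all nuclei, Pthlh ranged from -0.67 to 0.20, Mmp13 from -0.11 to 0.43 and Col10a1 from -1.05 to 0.53. The Pth1r level in the hypertrophic class was 313 CPM in nuclei with at least 2000 genes, and 34 other level values moved by less than 1 SD. Thinning moved 134 of 150 mean shares of nuclei with a UMI by more than 1 SD.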
